A study of Mus musculus with 12 samples.

Results

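Transcripts of the TGF-β pathway's ligands and receptors and of 3 classic targets were followed across 12 one-colour Agilent arrays of cultured mouse CD4+ T cells. The genes are the ligands Tgfb1, Tgfb2 and Tgfb3, the receptors Tgfbr1, Tgfbr2 and Tgfbr3, and the targets Ccn2, Tgfbi and Pmepa1. They were chosen by name, and every probe annotated to them was kept, which gave 9 of the 27597 gene names on the array, read by 13 of its 41174 probes. The array lists Ccn2 under its older symbol Ctgf, and it lists Pmepa1 as Tmepai, an older name matched through its RefSeq accession. A probe was tested when the scanner software marked it as well above background on 3 or more arrays of the 12. That left 11 probes of 8 genes, while Tgfb2 and the third Tgfbr2 probe were not tested.

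TGF-β ligands are secreted as latent precursors and act on cells once they are released from their propeptide. The active ligand binds the type II receptor (Tgfbr2), which recruits and phosphorylates the type I receptor (Tgfbr1), and this kinase then phosphorylates SMAD proteins that enter the nucleus. Betaglycan (Tgfbr3) is a coreceptor that presents ligand. In CD4+ T cells, TGF-β together with IL-4 gives IL-9-producing Th9 cells, and TGF-β with IL-2 gives Foxp3-expressing regulatory T cells.

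The study set out to define the transcriptome of Th9 cells, with 3 arrays for each of 4 groups. All cultures began with naive CD4+CD62L+ T cells of C57BL/6 mice, magnetically selected from spleen and lymph nodes, and all were activated with anti-CD3 and anti-CD28 and kept for 5 days. Stimulated Th9 cultures (below, Th9 with anti-CD3) were Th9 cultures given 1 µg/ml anti-CD3 for 6 h on day 5. Th9 cultures received 20 ng/ml IL-4, 2 ng/ml TGF-β and anti-IFN-γ, with IL-4 and TGF-β again at expansion on day 3. Treg cultures received TGF-β and anti-IL-4, with IL-2 at expansion. Th2 cultures received IL-4 and anti-IFN-γ, so TGF-β was added in all groups but Th2. The labels describe no sorting after culture and do not state whether arrays of 1 group had separate cultures or mice behind them, so p-values here cover the spread among these arrays, which may be technical.

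Signal at the 75th percentile of an array lay between 556 and 828, and 59.9% to 63.7% of probes were well above background. Il9, the cytokine that names the Th9 lineage, had a mean level of 5.43 in Th9 with anti-CD3 and -1.75 in Th9, and it was not well above background in Treg or Th2. Foxp3 had a mean level of 0.53 in Treg, and no Th2 array had it well above background. All 8 T cell markers on the array were well above background on every array. The CD8 genes Cd8a and Cd8b1 were also well above background on every array, and the list of CD8 and NK cell markers had a mean level of -4.16 to -2.10 in Th9 with anti-CD3 against -1.36 to -1.12 in Th9. Markers of B cells had a mean level of -4.62 to -3.29 in Th9 with anti-CD3, -2.50 to -2.09 in Th9, 0.86 to 1.24 on the Treg arrays and -3.37 to -2.67 on the Th2 arrays, and the part of either list in the results below was not tested. The arrays lay on 3 slides: slide 1 held the Th2 arrays and Treg array 1, slide 2 held Treg arrays 2 and 3 and Th9 with anti-CD3 arrays 1 and 2, and slide 3 held the Th9 arrays and array 3 of Th9 with anti-CD3. No slide held both Th9 and Th2 or both Th9 and Treg, so those comparisons have no value within a slide.

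Levels below are log2 of the scanner's background-subtracted signal minus the same array's 75th percentile, so 0 is that percentile, and they are given for arrays 1, 2 and 3 of a group. A level belongs to its probe and is not set against the level of another probe. The probes are 60-base DNA oligos whose positions the scanner files give on the mouse build mm8. The sequences of 3 of the probes are shown. Of these, the Tgfb1 probe is spotted 10 times per array. In the results below, the second Tgfbr2 probe went against the first, and the first Pmepa1 probe separated the Th9 arrays from Treg and Th2. The Tgfb1 probe lies at chr7:25413618-25413677 on the plus strand, the Tgfbr2 probe at chr9:115958776-115958835 on the minus strand, and the Pmepa1 probe spans chr2:172877361-172919046 on the minus strand, a stretch longer than the probe. Each is written 5′ to 3′ in lower case, with no base singled out.
Tgfb1: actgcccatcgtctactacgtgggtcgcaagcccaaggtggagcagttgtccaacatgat
Tgfbr2 probe 2: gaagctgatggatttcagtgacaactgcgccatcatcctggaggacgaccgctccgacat
Pmepa1 probe 1: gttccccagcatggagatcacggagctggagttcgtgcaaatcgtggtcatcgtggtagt

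Among the ligands, Tgfb3 fell and Tgfb1 rose after anti-CD3. Tgfb3, a ligand whose induction in T cells has been tied to pathogenic Th17 cells in mice, had levels of -2.80, -2.64 and -2.36 in Th9 with anti-CD3, 4.42, 4.50 and 3.97 in Th9, 0.38, 0.39 and 0.26 in Treg, and 3.46, 3.18 and 2.22 in Th2. The order ran Th9, Th2, Treg and Th9 with anti-CD3, with no overlap between the arrays of any neighbouring groups. In signal units the probe read 89.2 to 124 in Th9 with anti-CD3, 10147 to 17743 in Th9, 673 to 777 in Treg and 3115 to 6368 in Th2. Tgfb3 was thus high in the Th9 and Th2 cultures and lowest after anti-CD3.

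Tgfb3 was 119-fold lower in Th9 with anti-CD3 than in Th9 (log2 difference -6.90 ± 0.28 SE, limma adjusted p = 5.3e-08), and the difference on slide 3 was -6.66. With normexp background correction, which adds an offset of 50 to every signal and so shrinks differences of dim probes, it was 68.4-fold lower. It was 15.5-fold higher in Th9 than in Treg (3.95 ± 0.28, adjusted p = 6.19e-07) and 6.08-fold lower in Treg than in Th2 (-2.61 ± 0.28, adjusted p = 1.27e-05). On slide 1 the Treg minus Th2 difference was -2.57. Between Th9 and Th2 the difference was smaller, 2.54-fold higher in Th9 (1.35 ± 0.28, adjusted p = 0.00891). With slide as a block that difference was 1.04 with an adjusted p of 0.617. In these bulk cultures, fewer cells that carry a transcript and less of it per cell cannot be told apart.

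Tgfb1, the main TGF-β of the immune system, had levels of 2.65, 2.42 and 2.43 in Th9 with anti-CD3, 1.65, 1.47 and 1.69 in Th9, 1.22, 1.25 and 1.32 in Treg, and 1.96, 1.97 and 2.02 in Th2. No neighbouring groups overlapped in the order Th9 with anti-CD3, Th2, Th9 and Treg. The 10 spots of the probe differed little on an array, with an SD of 0.02 to 0.06. Tgfb1 was 1.86-fold higher in Th9 with anti-CD3 than in Th9 (0.89 ± 0.10, adjusted p = 1.76e-05), with 0.82 on slide 3. It was lower in Treg than in Th2 by log2 -0.72 ± 0.10 (adjusted p = 0.000103), with -0.76 on slide 1. The smaller differences held less well. Th9 minus Treg was 0.34 ± 0.10 (adjusted p = 0.0119) and 0.42 with an adjusted p of 0.126 with slide as a block. Th9 minus Th2 was -0.38 ± 0.10 (adjusted p = 0.03), and it lost the call with slide as a block, with the fit limited to Th9 and Th2 arrays, and without Th2 array 1, 2 or 3 or Th9 array 1 or 2, where the adjusted p lay between 0.0554 and 0.661.

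Tgfb2, the ligand best known from development of the heart and eye, was well above background on 1 array of the 12, of Th9 with anti-CD3. Levels at background have no order, and none is given for it.

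**Figure D1:**
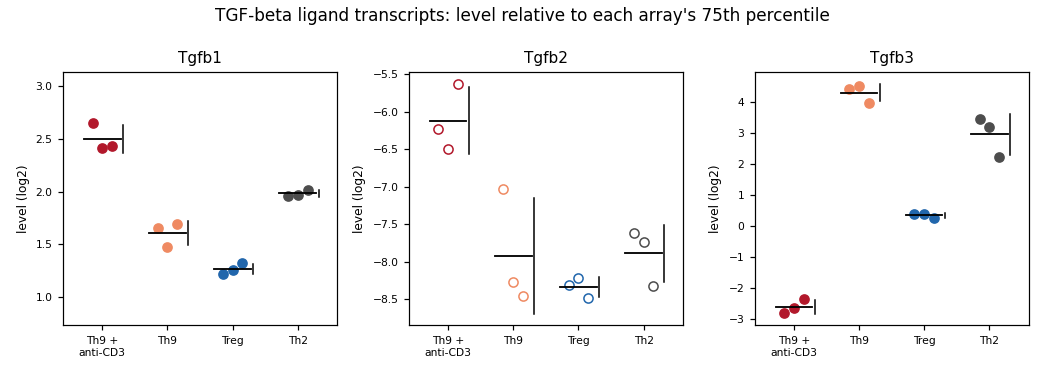
Level of the Tgfb1, Tgfb2 and Tgfb3 probes (vertical axes, log2 signal relative to each array's 75th percentile) on the 3 arrays of Th9 with anti-CD3, Th9, Treg and Th2. Points are arrays, hollow where fewer than 3 arrays of the group were well above background, the horizontal bar is the mean and the vertical line 1 SD either way; Tgfb3 runs from -2.80 in Th9 with anti-CD3 to 4.50 in Th9, and the vertical axes differ between panels.

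Among the receptors, Tgfbr3 was higher in both Th9 groups than in Treg and Th2, while the first Tgfbr2 probe was highest in Treg. Tgfbr3, or betaglycan, had levels of -3.16, -3.28 and -3.09 in Th9 with anti-CD3, -2.37, -2.59 and -2.65 in Th9, -4.42, -4.42 and -4.50 in Treg, and -4.51, -4.82 and -4.83 in Th2. The arrays of no neighbouring groups overlapped, although Treg and Th2 lay close together and did not pass the test (0.27 ± 0.12, adjusted p = 0.0669, and 0.0216 without Th2 array 1). Tgfbr3 was 4.54-fold higher in Th9 than in Th2 (2.18 ± 0.12, adjusted p = 4.06e-06), which stayed called with slide as a block (2.09, adjusted p = 0.018) and with normexp, where it was 0.97. It was 3.77-fold higher in Th9 than in Treg (1.91 ± 0.12, adjusted p = 2.79e-07), and 0.86 with normexp. After anti-CD3 it fell by 0.64 ± 0.12 relative to Th9 (adjusted p = 0.000662), with -0.55 on slide 3 and -0.32 with normexp.

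Tgfbr2, the type II receptor that binds ligand, has 3 probes, which differed in behaviour. Probe 1, annotated to the transcript variant 1 record, had levels of 2.46, 2.45 and 2.66 in Th9 with anti-CD3, 3.38, 3.24 and 3.28 in Th9, 3.90, 4.03 and 4.52 in Treg, and 2.92, 2.82 and 2.76 in Th2. The order was Treg, Th9, Th2 and Th9 with anti-CD3 with no overlap between neighbours. On probe 1 the transcript was lower in Th9 than in Treg (-0.85 ± 0.15, adjusted p = 0.000509) and higher in Treg than in Th2 (1.32 ± 0.15, adjusted p = 2.21e-05, 1.07 on slide 1). Stimulated cells were 1.71-fold lower than Th9 (-0.78 ± 0.15, adjusted p = 0.000893, -0.64 on slide 3). Th9 minus Th2 was 0.46 ± 0.15 and missed the threshold (adjusted p = 0.0605), and it was called with normexp background correction (0.63, adjusted p = 0.00918), with quantile normalization (0.52, adjusted p = 0.0296), with the deposited table (0.52, adjusted p = 0.0298), with the fit limited to Th9 and Th2 arrays (adjusted p = 0.0289) and without Treg array 3 (adjusted p = 0.0116). With slide as a block it was -0.12.

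Probe 2 of Tgfbr2, annotated to the transcript variant 2 record, had levels of -4.19, -4.07 and -3.84 in Th9 with anti-CD3, -2.0, -2.18 and -2.50 in Th9, -3.12, -3.04 and -2.33 in Treg, and -2.02, -1.77 and -2.39 in Th2. Treg arrays overlapped those of Th9 and Th2, and the stimulated arrays stood below all others. On this probe Treg was lower than Th2 (-0.77 ± 0.23, adjusted p = 0.0131, -1.06 on slide 1 and -0.43 with normexp), the opposite of probe 1, and the call was lost without Th2 array 2, Treg array 1 or Treg array 2 (adjusted p 0.0516 to 0.0553). Th9 was higher than Treg on probe 2 (0.60 ± 0.23, adjusted p = 0.0399), again against probe 1, and that call was lost in 11 of 20 alternatives, with 0.17 when slide was a block and 0.33 with normexp. The fall after anti-CD3 was shared by both probes and was 3.49-fold on probe 2 (-1.80 ± 0.23, adjusted p = 4.53e-05, -1.61 on slide 3 and -0.93 with normexp). The records name transcript variants, but whether probe 1 or probe 2 reads only its variant was not tested. Probe 3, matched to a cDNA clone, was well above background on 1 Treg array and on no other.

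Tgfbr1, the type I receptor kinase, passed the test in no comparison on its brighter probe. Probe 1 had levels of 0.69, 0.72 and 0.79 in Th9 with anti-CD3, 0.75, 0.64 and 1.06 in Th9, 0.55, 0.64 and 0.47 in Treg, and 0.47, 0.44 and 0.71 in Th2. The arrays of both Th9 groups overlapped, those of Treg and Th2 overlapped, and the Treg arrays lay just below both Th9 groups. The differences were -0.08 ± 0.13 for Th9 with anti-CD3 minus Th9 (adjusted p = 0.601), 0.26 ± 0.13 for Th9 minus Treg (adjusted p = 0.0881, called without Th9 array 2 at 0.0483 and with normexp at 0.0416), 0.01 ± 0.13 for Treg minus Th2 (adjusted p = 0.927) and 0.28 ± 0.13 for Th9 minus Th2 (adjusted p = 0.164). Probe 2, whose signal was 13.2 to 31.0, was called higher in Th9 with anti-CD3 than in Th9 (0.73 ± 0.23, adjusted p = 0.0179, and 0.32 with normexp). That call was lost with slide as a block (0.86, adjusted p = 0.0737) and without Th9 array 1 or Th9 with anti-CD3 array 3.

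**Figure D2:**
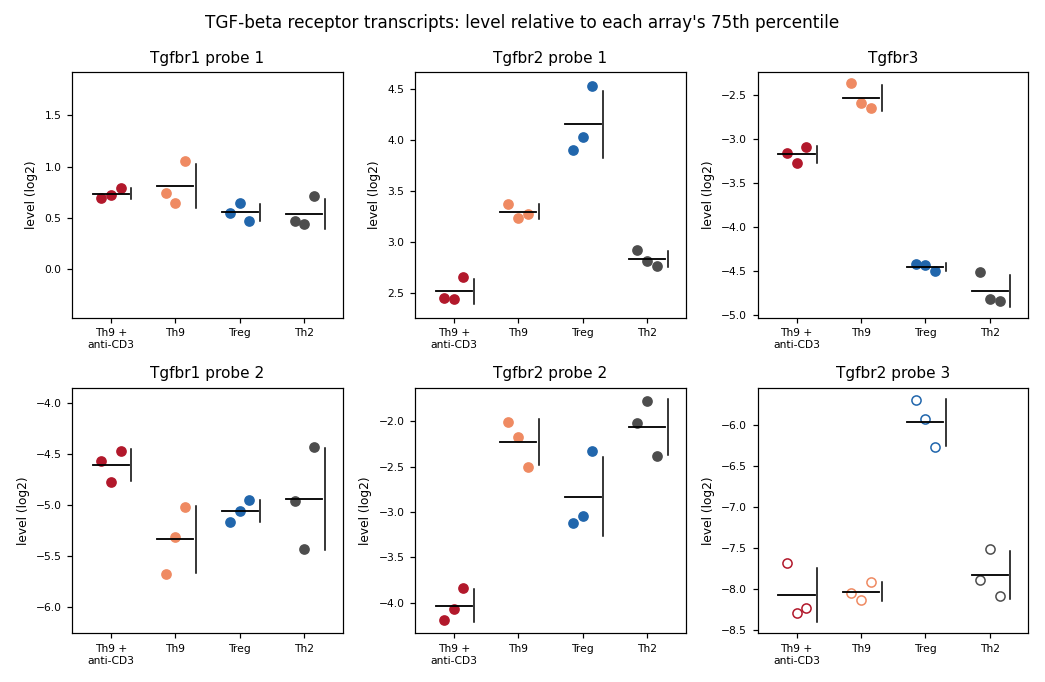
Level of the probes of Tgfbr1, Tgfbr2 and Tgfbr3 (vertical axes, log2 signal relative to each array's 75th percentile) on the 3 arrays of Th9 with anti-CD3, Th9, Treg and Th2. Points are arrays, hollow where fewer than 3 arrays of the group were well above background, with the mean as a horizontal bar and 1 SD either way as a vertical line; Tgfbr3 stands at -2.65 to -2.37 in Th9 against -4.83 to -4.51 in Th2.

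The targets Pmepa1, on probe 1, and Ccn2 stood higher in both Th9 groups than in Treg and in Th2. Th9 and Treg cultures differ in IL-4, anti-IL-4, anti-IFN-γ, what was given at expansion, and slide, which cannot be told apart here. Pmepa1 encodes a membrane protein that binds SMADs and restrains TGF-β signalling. Its probe 1 had levels of 0.89, 0.89 and 1.03 in Th9 with anti-CD3, 1.02, 0.94 and 0.96 in Th9, -0.54, -0.39 and -0.66 in Treg, and -0.48, -0.38 and -0.61 in Th2. The arrays fell into an upper pair of groups and a lower pair, with overlap inside each pair and none between them. Th9 was 2.75-fold above Th2 (1.46 ± 0.10, adjusted p = 1.49e-05, and 1.31 with an adjusted p of 0.0493 with slide as a block). Th9 was 2.84-fold above Treg (1.51 ± 0.10, adjusted p = 5.83e-07). Treg and Th2 differed by -0.05 ± 0.10 (adjusted p = 0.724) and Th9 with anti-CD3 and Th9 by -0.04 ± 0.10 (adjusted p = 0.781).

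Pmepa1 probe 2 had levels of -0.35, -0.54 and -0.33 in Th9 with anti-CD3, 0.73, 0.52 and 0.49 in Th9, -0.33, -0.52 and -1.08 in Treg, and -1.61, -1.53 and -1.73 in Th2. Here Th9 stood highest and Th2 lowest, with Th9 with anti-CD3 and Treg overlapping in between. Th9 was above Th2 on both probes, by 2.20 ± 0.17 on probe 2 (adjusted p = 2.92e-05, and 2.55 with an adjusted p of 0.0188 with slide as a block), and above Treg by 1.23 ± 0.17 (adjusted p = 0.000105). On this probe, and not on probe 1, Treg was called above Th2 (0.98 ± 0.17, adjusted p = 0.00052, 1.29 on slide 1) and Th9 with anti-CD3 below Th9 (-0.99 ± 0.17, adjusted p = 0.000445, -0.91 on slide 3).

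Ccn2, connective tissue growth factor, a secreted matrix-associated protein, had levels of -2.95, -2.87 and -2.53 in Th9 with anti-CD3 and -2.61, -2.60 and -1.83 in Th9, and it was not well above background on any Treg or Th2 array. It was therefore tested through the 6 arrays of both Th9 groups alone. Where a group is not well above background, a fold is a bound, and the adjusted p beside it is that of the fitted log2 difference. The mean of the brighter group is compared with a floor for the dimmer one, taken on each array as the probe's own signal or that array's dimmest signal called well above background, whichever is higher, and then averaged. By that bound Ccn2 in Th9 was at least 12.2-fold above Th2 (adjusted p = 0.000106) and at least 12.8-fold above Treg (adjusted p = 1.54e-06). These bounds hold on the scale without an offset: with normexp the log2 differences were 1.31 for Th9 minus Th2 and 1.29 for Th9 minus Treg, both below the bounds and both still called. With slide as a block the Th9 minus Th2 call was lost (fitted log2 difference 3.13 ± 0.95, adjusted p = 0.182). Th9 with anti-CD3 and Th9 overlapped and did not pass the test (-0.43 ± 0.39, adjusted p = 0.349).

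Tgfbi, a secreted adhesion protein named for its induction by TGF-β, was dim throughout. It had levels of -6.06, -5.45 and -4.86 in Th9 with anti-CD3, where 2 of 3 arrays were well above background, and -4.44, -5.02 and -5.66 in Treg, where all 3 were. No array of Th9 or Th2 had it well above background. It was at least 2.18-fold lower in Th9 than in Treg (adjusted p = 0.00116) and at least 1.90-fold higher in Treg than in Th2 (adjusted p = 0.000288). Th9 with anti-CD3 was called higher than Th9 (1.53 ± 0.39, adjusted p = 0.00499). No bound is given there, since 1 array of Th9 with anti-CD3 was itself not well above background. With normexp the log2 differences were -0.50 for Th9 minus Treg and 0.41 for Treg minus Th2, both below the bounds and both still called. Th9 with anti-CD3 minus Th9 was 0.37 with normexp and still called.

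Macrophage and dendritic cell markers went both ways between Treg and the other groups. Of 11 such markers, 6 were well above background on all Th9 arrays, 8 on all Treg arrays and 6 on all Th2 arrays. Their mean level was -5.50 to -5.48 on the Th9 arrays, -4.40 to -4.23 on the Treg arrays and -5.40 to -5.12 on the Th2 arrays. Lyz2 had a mean level of 0.38 in Treg and Itgam -4.58, and both were not well above background in Th9 and Th2, while Mrc1, Clec9a and Fcgr1 were not well above background in any group. Itgax, Cd14 and Flt3 were well above background on every array and had their highest mean in Treg. Itgax was at -4.46 in Th9, -3.17 in Treg and -3.87 in Th2. Cd14 was at -5.45 in Th9, -4.54 in Treg and -5.01 in Th2, and Flt3 at -5.43 in Th9, -4.50 in Treg and -5.19 in Th2. Adgre1 was lower in Treg, with a mean level of 0.78 in Th9, -2.07 in Treg and 1.05 in Th2. Cd68 was at -2.34 in Th9, -3.03 in Treg and -2.19 in Th2, and Csf1r at -3.33 in Th9, -3.49 in Treg and -3.27 in Th2. In Th9 with anti-CD3, where Tgfbi was also higher than in Th9, the list stood at -5.75 to -5.50. The part of these cells in the Tgfbi, Tgfb1 and Tgfbr2 differences between Treg and the other groups was not tested.

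**Figure D3:**
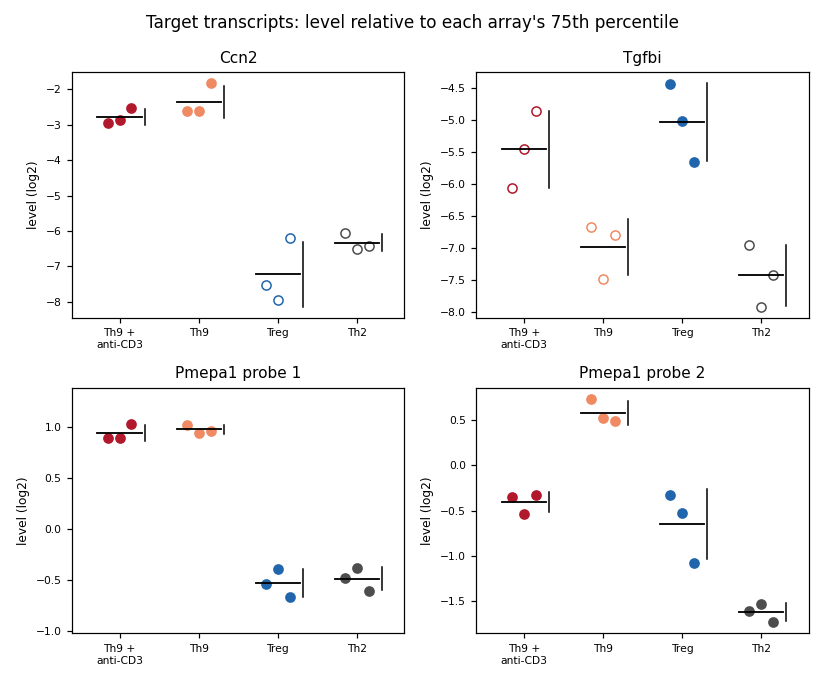
Level of the Ccn2, Tgfbi and Pmepa1 probes (vertical axes, log2 signal relative to each array's 75th percentile) on the 3 arrays of Th9 with anti-CD3, Th9, Treg and Th2. Points are arrays, hollow where fewer than 3 arrays of the group were well above background, with the mean as a horizontal bar and 1 SD either way as a vertical line; Pmepa1 probe 1 lies between 0.89 and 1.03 in both Th9 groups and between -0.66 and -0.38 in Treg and Th2.

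Counted over the 11 tested probes, in Th9 against Th2 5 were called higher and 1 lower, with a background of 16.1% of all tested probes called, 7.71% higher and 8.42% lower. Between Th9 and Treg, 7 were higher and 2 lower in Th9, where 64.6% of all tested probes were called, 28.6% higher and 36% lower. Between Treg and Th2, 3 were higher and 3 lower in Treg, with 63.8% of all tested probes called, 34.6% higher and 29.2% lower. After anti-CD3, 3 were higher and 5 lower than in Th9, with 64.9% of all tested probes called, 32.4% higher and 32.5% lower. Apart from Th9 against Th2, each comparison called most of the tested probes, so being called in them sets a probe little apart from the rest. The median log2 difference of all genes was -0.13 for Th9 minus Treg and 0.11 for Treg minus Th2, and within 0.03 of 0 for the others. These comparisons share arrays: Th9 enters 3 of them, and Treg and Th2 enter 2 each.

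**Figure D4:**
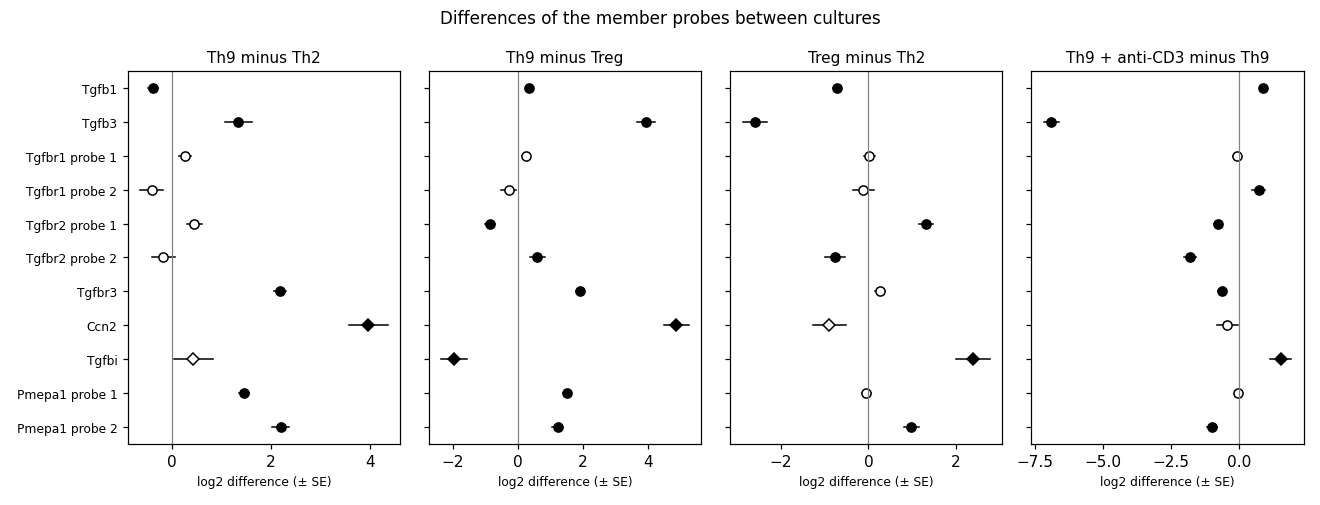
Log2 difference of each tested probe (horizontal axes, which differ between panels) for Th9 minus Th2, Th9 minus Treg, Treg minus Th2 and Th9 with anti-CD3 minus Th9, with limma standard errors as bars. Filled points passed an adjusted p of 0.05, open points did not, and diamonds mark probes not well above background in at least one group; the differences run from -6.90 for Tgfb3 after anti-CD3 to 4.87 for Ccn2 in Th9 minus Treg.

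Other genes of the pathway were counted by 5 lists, each gene by its probe with the highest mean. The receptor list, of activin and BMP receptors and coreceptors, had 12 tested genes of 13. Of these, 6 were higher and none lower in Th9 than in Th2 (background over genes 7.74% higher, 8.86% lower), with a median log2 difference of 0.46. With slide as a block, 1 of the 12 was called higher and none lower. The same block cut the calls over all tested probes from 2092 higher and 2284 lower to 252 and 145. Acvr2a, an activin type II receptor, was higher by 2.40 ± 0.19 (adjusted p = 3.38e-05). Acvrl1, the type I receptor ALK1, was higher by 2.17 ± 0.45 (adjusted p = 0.00971), and by 0.95 with slide as a block (adjusted p = 0.805). Against Treg, 9 were higher and none lower in Th9 (28.1% and 36.1% of all genes), with a median of 2.25, led by Acvrl1 at 4.75 ± 0.45 and Acvr2a at 3.44 ± 0.19. In Treg minus Th2, 2 were higher and 8 lower (34.4% and 28.6% of all genes), with a median of -1.04. After anti-CD3 none were higher and 8 lower (32% and 31.9% of all genes), with a median of -0.78, and Acvrl1 fell by 4.63 ± 0.45 relative to Th9 (adjusted p = 5.8e-06), with -4.27 on slide 3.

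Genes of latency and activation had 14 tested of 20, with 1 higher and 3 lower in Th9 against Th2 (7.74% and 8.86% of all genes), 5 higher and 3 lower in Th9 against Treg (28.1% and 36.1%), 3 higher and 6 lower in Treg than in Th2 (34.4% and 28.6%), and 4 higher and 3 lower after anti-CD3 (32% and 31.9%). With slide as a block, 0 were higher and 1 lower in Th9 against Th2, and 3 higher and 2 lower in Th9 against Treg. Over all tested probes that block left 252 higher and 145 lower in Th9 against Th2. Against Treg it left 4722 and 5364. Ltbp3, a latent TGF-β binding protein, was higher in Th9 than in Treg by 5.16 ± 0.27 (adjusted p = 7.48e-08) and lower in Treg than in Th2 by -4.92 ± 0.27 (adjusted p = 1.04e-07, -5.02 on slide 1). Its level fell by 3.22 ± 0.27 after anti-CD3 (adjusted p = 1.73e-06, -2.82 on slide 3). Furin, the protease that cleaves the TGF-β propeptide, was 2.61 ± 0.16 higher after anti-CD3 (adjusted p = 2.63e-07, 2.36 on slide 3), and Itgb8, an integrin subunit that activates latent TGF-β, stood at least 7.44-fold above Th9 (adjusted p = 0.00197, and 0.0526 with slide as a block). Thbs1, thrombospondin 1, also an activator of latent TGF-β, was at least 6.06-fold higher in Treg than in Th2 (adjusted p = 0.00177). Pf4, a platelet marker, was well above background on all 3 Treg arrays and on no Th2 array. Of the other platelet markers, Ppbp, Gp9 and Gp1ba were not well above background in either group, Itga2b had a mean level of -3.09 in Treg and -4.22 in Th2, Gp1bb -4.22 in Treg and -4.67 in Th2, and Treml1 -4.93 in Treg and -4.62 in Th2. The list had a mean level of -5.95 to -5.13 on the Treg arrays and -6.78 to -6.14 on the Th2 arrays, and its part in the Thbs1 difference was not tested.

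Other ligands of the superfamily had 11 tested genes of 16. In Th9 against Th2, 2 were higher and none lower (7.74% and 8.86% of all genes). Against Treg, 4 were higher and 2 lower in Th9 (28.1% and 36.1%), and between Treg and Th2, 3 were higher and 4 lower in Treg (34.4% and 28.6%). After anti-CD3, 3 were higher and 2 lower (32% and 31.9%). With slide as a block, 0 were higher and 0 lower in Th9 against Th2, and 2 higher and 2 lower in Th9 against Treg. The counts of that block over all tested probes are given above. Inhba, the activin A subunit, was higher in Th9 than in Treg by 5.56 ± 0.42 (adjusted p = 1.15e-06) and higher still after anti-CD3, by 5.21 ± 0.42 over Th9 (adjusted p = 1.59e-06, 4.85 on slide 3). Inhba was also lower in Treg than in Th2 (-4.62 ± 0.42, adjusted p = 4.46e-06, -3.65 on slide 1). Between Th9 and Th2, with mean levels of 1.08 and 0.14, it was not called. Inha, the inhibin α subunit, was 2.05 ± 0.27 higher in Th9 than in Th2 (adjusted p = 0.000778), a call lost with slide as a block (0.73, adjusted p = 0.572). Inha fell by 2.06 ± 0.27 after anti-CD3 (adjusted p = 5.44e-05, -1.82 on slide 3). Tgfb3, Inha, Ltbp3 and Acvrl1 each fell after anti-CD3, while Tgfb1, Inhba, Furin and Itgb8 each rose.

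SMADs and their regulators had 17 tested genes of 18, of which 3 were higher and 2 lower in Th9 against Th2 (7.74% and 8.86% of all genes), 6 higher and 9 lower in Th9 against Treg (28.1% and 36.1%), 8 higher and 3 lower in Treg than in Th2 (34.4% and 28.6%), and 4 higher and 6 lower after anti-CD3 (32% and 31.9%). With slide as a block, 0 were higher and 0 lower in Th9 against Th2, and 1 higher and 4 lower in Th9 against Treg. Over all tested probes that block took Th9 against Treg from 7771 higher and 9767 lower to 4722 and 5364. Skil, a SMAD corepressor that TGF-β signalling induces, was 1.46 ± 0.18 higher in Th9 than in Th2 (adjusted p = 0.000427, and 1.73 with an adjusted p of 0.108 with slide as a block). Smad3, a receptor-regulated SMAD, was lower there (log2 difference -0.75 ± 0.13, adjusted p = 0.00436, and 0.189 with slide as a block). Smad7, the inhibitory SMAD, was 1.30 ± 0.12 higher in Treg than in Th2 (adjusted p = 5.89e-06, 1.23 on slide 1). Nedd4l, a ubiquitin ligase for SMADs, fell by 3.27 ± 0.16 after anti-CD3 (adjusted p = 9.5e-08, -3.00 on slide 3).

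Other textbook targets had 21 tested genes of 22. In Th9 against Th2, 4 were higher and 4 lower (7.74% and 8.86% of all genes), and against Treg 11 were higher and 3 lower in Th9 (28.1% and 36.1%). In Treg against Th2, 5 were higher and 11 lower (34.4% and 28.6%), and after anti-CD3, 8 were higher and 6 lower (32% and 31.9%). Itgae, the CD103 integrin subunit, was higher in Th9 than in Th2 by 3.84 ± 0.37 (adjusted p = 9.88e-05), and Foxp3 in Th9 stood at least 14.4-fold above Th2 (adjusted p = 3.51e-06). With slide as a block, 2 of the 21 tested targets were called higher and none lower in Th9 than in Th2. Over all tested probes, that block left 252 higher and 145 lower, against 2092 and 2284 without it. Myc was lower in Th9 than in Th2 by log2 -1.46 ± 0.15 (adjusted p = 0.000154, and -0.97 with an adjusted p of 0.221 with slide as a block) and 2.54 ± 0.15 higher after anti-CD3 (adjusted p = 2.25e-07, 2.28 on slide 3). With normexp, log2 differences of the dimmer genes named from these lists were smaller and still called. In Th9 minus Th2 they were 1.44 for Acvr2a, 1.15 for Inha and 1.48 for Foxp3. Acvr2a was at 1.61 in Th9 minus Treg, and Thbs1 at 1.00 in Treg minus Th2. In Th9 with anti-CD3 minus Th9, Itgb8 was at 1.12, Inha at -1.15 and Nedd4l at -2.06. The values of Foxp3, Thbs1 and Itgb8 lay below the bounds given for them, which hold on the scale without an offset.

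**Figure D5:**
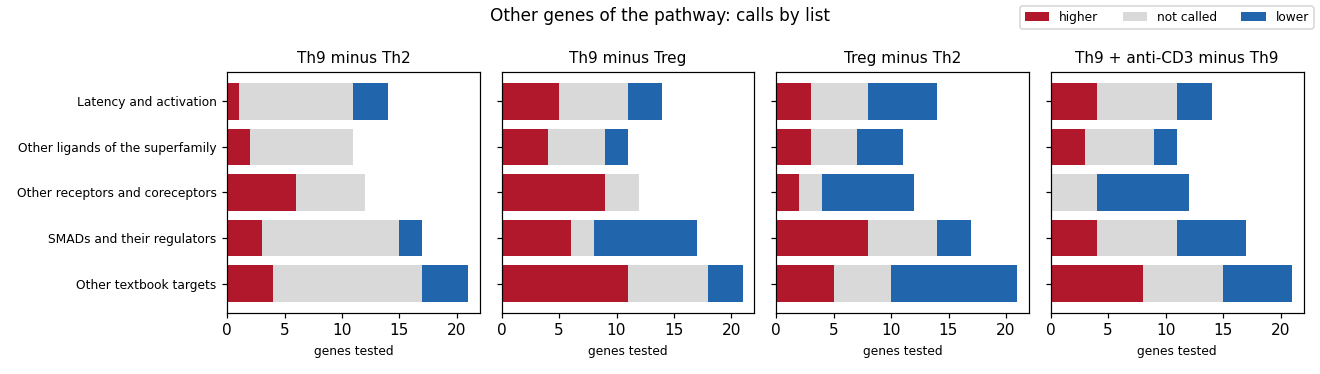
Number of tested genes (horizontal axes) of 5 other pathway lists called higher, not called or called lower in Th9 minus Th2, Th9 minus Treg, Treg minus Th2 and Th9 with anti-CD3 minus Th9. Each bar is one list; of the 12 tested receptors, 9 are higher in Th9 minus Treg and 8 are lower in Th9 with anti-CD3 minus Th9.

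The genes whose level ran most like each member over the 12 arrays were taken by Pearson correlation with the member's brightest probe, as a description in which the 4 groups carry most of the spread. Tgfb3 ran most like Pfkm (r = 0.995), Bend5 (0.993) and Acp6 (0.993). Tgfb1 ran most like Il13, a type 2 cytokine, at 0.985, and Tgfbr2 probe 1 like Cpm at 0.990. Tgfbr3 ran most like Adam19 at 0.980, Ccn2 like Mapre2 at 0.970, Pmepa1 probe 1 like Ttc39c at 0.996, and Tgfbi like Ctxn1 at 0.936. Among the members, Tgfbr3 and Pmepa1 probe 1 had r = 0.956, Ccn2 and Pmepa1 probe 1 0.953, and Tgfb1 and Tgfbr2 probe 1 -0.904. For Tgfbr1 probe 1 the closest gene, Aga, reached 0.898.

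RefSeq windows of 250 bases before a gene's start (build GRCm38.p6) were matched for Tgfb1, Tgfb2, Tgfbi, Tgfbr1 and Tgfbr2, in 6 windows since Tgfbr1 has 2. The SMAD box CAGACA, read on both strands, occurred once in the Tgfb2 window and once in 1 Tgfbr1 window, and 17.1% of the 32851 windows in the table hold it. The GC box GGGCGG occurred 5 times in the Tgfb1 window, 2 times in 1 Tgfbr1 window and once in the Tgfbi window, and 32.7% of all windows hold it. No AP-1 site (TGAGTCA or TGACTCA) was in any of the 6 windows, and 4.46% of all windows hold one.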

How the data were processed

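RNA of cultured T cells was hybridised to 12 one-colour (Cy3) Agilent arrays, per the labels. The deposited scanner files hold spot intensity. Per the file headers, Agilent Feature Extraction 10.5.1.1 read the spots and subtracted background, and arrays were not normalized to one another. The deposited table of the series holds log2 values that, as judged from the values, were quantile normalized; it served as an alternative, and 83 of its values were missing. How its authors tested it is not given in the sources used here.

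From the scanner files, control spots and outlier-flagged spots were left out, the 10 spots of the Tgfb1 probe (1 for the others) were averaged, and the log2 signal minus the array's 75th percentile was fitted for the 27135 probes well above background on at least 3 arrays, with limma 3.58.1 in R 4.3.3 (lmFit with 1 mean per group, eBayes), all 12 arrays together. P-values were adjusted by Benjamini-Hochberg within each comparison, over all tested probes, and called under 0.05. Errors are SE for differences and SD for levels, and n is 3 arrays per group, which limits the precision. No probe was saturated. The fit was tested on simulated data. Probe positions are mm8 from the scanner files, and names came from a GRCm38.p6 gene table. Members are given on every probe. Of each pathway list, the text names some of the up to 4 called genes with the largest difference per comparison. The members and the lists were chosen with earlier results of these data known. The alternatives were normexp background correction, quantile normalization, the deposited table, no filter on dim probes, slide or replicate number as a block, the 2 groups compared alone, and each array left out; running them on the pathway lists was added after the data were seen.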

Additional observations from a re-analysis of the deposited data

How the results depend on the processing

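Over 20 alternatives, 880 values of the tested probes were recomputed: 829 kept their direction and their side of the threshold, 12 turned sign without being called either way, 27 lost the call, 12 gained it and no called value turned sign. With slide as a block, in Th9 against Th2 3 of the tested probes were called higher and 0 lower, beside 252 higher and 145 lower over all probes; over all probes Th9 against Treg then had 4722 higher and 5364 lower, against 7771 and 9767 without it. With the fit limited to Th9 and Th2 arrays, 0 of the tested probes were lower in Th9. Of all probes called between Th9 and Th2, 63.5% were higher in Th9 with slide as a block and 47.8% without it. Each slide holds 2 groups, and the cause was not tested. Leaving out 1 array at a time, Th9 against Th2 had 5 to 6 tested probes higher and 0 to 1 lower, with 1257 to 2420 higher and 1197 to 2652 lower over all probes. The low counts came without Th9 array 2 (1257 and 1267), Th2 array 2 (1366 and 1197) and Th2 array 1 (1267 lower). Between Th9 and Treg the range was 6 to 7 higher and 2 to 2 lower, with 6996 to 7882 and 8755 to 9953 over all probes. Between Treg and Th2 it was 3 to 4 higher and 2 to 4 lower, with 8451 to 9576 and 7207 to 8043 over all probes. After anti-CD3 it was 2 to 3 higher and 5 to 5 lower, with 8089 to 8971 and 8052 to 9028 over all probes.

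The groups share replicate numbers. Deviations from the group means correlated above 0.1 in 7 of 18 same-numbered pairs of arrays (median r 0.0675, highest 0.409) and in 1 of 36 differently numbered pairs (median -0.0362), and the best match had the same number in 22 of 36 cases. That hints at some pairing in the data, but not every pair passed 0.1 and the labels give none, so the fit without the block was kept. With the replicate number as a block, Tgfbr2 probe 2 was 0.60 for Th9 minus Treg (adjusted p = 0.0634) and Ccn2 -0.89 for Treg minus Th2 (adjusted p = 0.0291), and the block changed no other call of the tested probes. Ccn2 in Treg and Th2 and Tgfbi in Th9 and Th2 were not well above background, so depth of signal limits these to bounds.

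Of 1560 values of the pathway-list genes with the largest called differences (up to 4 per list and comparison), 1516 kept direction and side of the threshold and 43 lost the call. Smad9 in Th9 minus Treg turned sign under normexp background correction (log2 difference -0.0673, adjusted p = 0.56). The cause was not tested.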
